A study of Mus musculus with 6 samples.

Results

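The 8 genes described here encode lipoprotein lipase (Lpl), the proteins that fold, carry and inhibit it (Lmf1, Gpihbp1, Angptl4 and Angptl2), 2 receptors that bind lipoproteins (Vldlr and Lrp1) and the fatty acid transporter CD36 (Cd36). They were taken by symbol from a table of 45777 genes of epididymal white adipose tissue, an abdominal fat depot of mice, and all 8 were found and passed the filter on low counts, among 17820 genes tested. The mice were on a C57BL/6 background and all had fasted for 24 h. The 3 libraries labelled WT came from Pak4 flox/flox mice, which carry loxP-flanked alleles of Pak4, a kinase activated by CDC42-type GTPases. The 3 libraries labelled KO came from Adipoq-Cre; Pak4 flox/flox mice, so both groups carry the floxed alleles, and no group with the Cre alone was analysed here. The Adipoq promoter drives Cre in adipocytes, so the Pak4 alleles of vessel, blood and stromal cells are not targeted. Sex and age are not given. The comparison asks how these transcripts, whose products handle circulating triglyceride, differ in the fasted fat pad between the libraries labelled KO and WT. The handling itself was not measured here.

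Lipoprotein lipase is made mainly by adipocytes in fat, folded in the endoplasmic reticulum with the help of LMF1, and secreted. GPIHBP1, a surface protein of capillary endothelium, carries it to the vessel lumen, where it splits the triglyceride of lipoproteins into fatty acids that CD36 helps to take up. In fasting, ANGPTL4 made by adipocytes inactivates the enzyme, which turns fat away from storage.

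Facts of the whole series bear on how the labels can be read. Pak4 had higher and not lower values under the KO label, with 675 to 815 counts there and 337 to 358 counts in the WT group. Its log2 fold change was 0.96 ± 0.14 (SE). Each direction below therefore refers to the labels and does not stand for a genotype. These counts are totals per gene, and those of the floxed exons alone were not analysed here. Samd4b, which overlaps Pak4 on the same strand, had 2296 to 2438 counts in the WT and 2689 to 3037 counts in the KO group, and reads shared by both genes cannot be told apart. Total counts per library ran from 62854465 to 72005658. The library labelled KO 1 lay between the other libraries of both labels on the first principal component, and values of the 8 genes and their ratios that moved by over 1.5 times or changed a call without it are given both ways. Adipocytes are the labelled cell type, but the protocol started from excised tissue. The adipocyte genes Adipoq, Plin1, Cidec and Retn were among the 116 most abundant genes in every library. Markers of endothelium and macrophages were detected as well, so the libraries hold several cell types. In such bulk tissue, fewer cells of a type and less RNA per cell cannot be told apart. Whether each numbered library is a different mouse is not stated, so the p-values reflect only the spread among these libraries, which may be technical.

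Promoter sequences are shown for Vldlr and Cd36, a receptor for triglyceride-rich lipoproteins and the fatty acid transporter, because both genes are known targets of PPAR gamma, the lipid-sensing nuclear receptor of adipocytes, and Pparg was measured in the same libraries. RefSeq promoters (build GRCm38.p6, the assembly of mm10) were matched for 5 of the 8 genes, and those of Lpl, Gpihbp1 and Angptl4 were not among them. The 250 bases before a start site are given 5′ to 3′ on the strand of the gene. Capitals mark AGGTCA, the half-site of many nuclear receptors, and CCAAT, each searched on both strands. The Vldlr window is chr19:27216234-27216483 on the plus strand, and the Cd36 window is chr5:17835897-17836146 on the minus strand, inside the span of the gene, 52.8 kb from its outermost start. Neither window overlaps an annotated exon of GENCODE M21.
Vldlr: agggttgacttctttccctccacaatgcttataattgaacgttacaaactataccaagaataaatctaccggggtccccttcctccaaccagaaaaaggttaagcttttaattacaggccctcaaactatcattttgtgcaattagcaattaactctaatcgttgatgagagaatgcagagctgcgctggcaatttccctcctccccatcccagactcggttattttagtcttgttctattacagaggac
Cd36: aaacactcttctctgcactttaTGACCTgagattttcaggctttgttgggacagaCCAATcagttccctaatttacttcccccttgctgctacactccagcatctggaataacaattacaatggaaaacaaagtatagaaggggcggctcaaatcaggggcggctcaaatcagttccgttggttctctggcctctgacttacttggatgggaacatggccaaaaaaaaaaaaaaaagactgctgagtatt
The Cd36 window held 1 AGGTCA half-site, read on the opposite strand at 228 to 223 bases before the start, and 1 CCAAT at 195 to 191 bases before it. The Vldlr window shown held neither. RefSeq gives Vldlr a second, downstream start, whose window is not shown because it overlaps exons of GENCODE M21; it held 1 CCAAT, read on the opposite strand at 78 to 74 bases before that start, and no AGGTCA. Of 32851 promoter windows of this length, 14.0% held AGGTCA and 33.8% held CCAAT. A match is a description of letters only, and binding was not measured.

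The 8 genes covered a wide range of transcript levels. On the authors' TPM scale, which corrects for transcript length, Lpl stood at 5031 as a mean over the 6 libraries and ranked between 18 and 29 among all genes in each. Cd36 followed at 2862 TPM, Angptl4 at 738.7, Gpihbp1 at 185.5, Lrp1 at 94.5, Angptl2 at 55.05, Lmf1 at 23.5 and Vldlr at 22.5. Each of the first 7 lay above the next in order without overlap over the 6 libraries except Lmf1, whose range of 20.7 to 25.9 TPM overlapped that of Vldlr, 18.5 to 25.2 TPM. Within a library, Lpl had 20.9 to 33.9 times the TPM of Gpihbp1 and 5.18 to 9.07 times that of Angptl4. The maturation factor and the very low density lipoprotein receptor were thus the least abundant of the 8 transcripts, and the enzyme the most abundant.

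**Figure D1:**
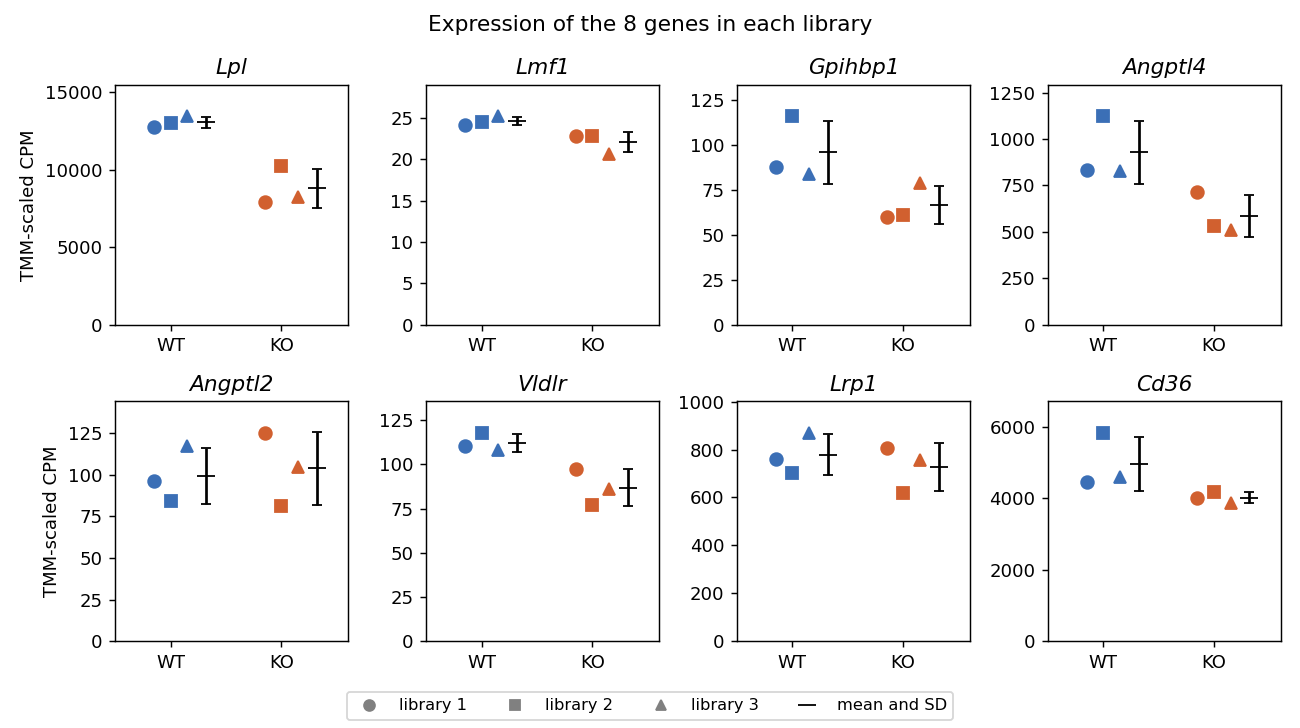
TMM-scaled CPM of each gene (vertical axes, linear and starting at 0) in the 3 libraries labelled WT (blue) and the 3 labelled KO (orange), with symbols for library numbers and the mean and SD beside each group. Lpl, Lmf1, Gpihbp1, Angptl4, Vldlr and Cd36 have all 3 KO libraries below all 3 WT libraries, while Angptl2 and Lrp1 overlap.

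Across the group, 6 of the 8 genes had all 3 KO libraries below all 3 WT libraries, and none the reverse. Such non-overlap towards lower values held for 12.5% of all tested genes and towards higher values for 13.7% on this scale, counts per 1000000 counts after TMM scaling (CPM). None of the 8 passed the test across all genes (quasi-likelihood test in edgeR, Benjamini-Hochberg adjusted p under 0.05), in which 0.0168% of genes did. At an unadjusted p under 0.05, 4 of the 8 were lower and 0 higher in that fit, where 9.71% of all genes were lower and 9.66% higher. DESeq2 called 4 of the 8 lower, namely Lpl, Gpihbp1, Angptl4 and Vldlr, all 4 of which had an unadjusted p under 0.05 in edgeR; it called 4.27% of all genes lower and 2.89% higher. Limma voom called 0 of the 8 and 0.0281% of all genes. The median log2 fold change of the 8 genes was -0.34, against 0.02 over all tested genes. The count of 6 depended on scaling: it was 3 (Lpl, Angptl4 and Vldlr) in CPM by library size alone, with 7.07% of genes lower, and 4 in the authors' TPM, with 8.54%. It stayed at 6 without KO 1, where 24.1% of all genes did not overlap towards lower values.

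The enzyme was the most abundant of the 8 transcripts and had closely matched values in the WT libraries. Lpl (gene ID 16956, chromosome 8, 68880555 to 68906932 in mm10) had 12720, 12990 and 13440 CPM in WT 1 to 3 and 7900, 10250 and 8209 CPM in KO 1 to 3. The groups did not overlap, and KO 2 was the library labelled KO nearest to the WT group. The means were 13050 ± 363 and 8787 ± 1278 CPM (SD, n = 3), a log2 fold change of -0.57 ± 0.17 (SE) with an unadjusted 95% interval of -0.96 to -0.18. The adjusted p was 0.169 in edgeR and 0.00139 in DESeq2. The fold change lay between -0.70 and -0.45 over 13 alternatives, and DESeq2 was the one in which it passed.

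Lmf1 (chromosome 17, 25579174 to 25662831), whose product folds the enzyme, differed far less. It had 24.2, 24.6 and 25.2 CPM in WT 1 to 3 and 22.8, 22.8 and 20.7 CPM in KO 1 to 3. The groups did not overlap in CPM, but in the authors' TPM KO 2 (24.3) lay above WT 1 (23.7) and WT 2 (23.5). The log2 fold change was -0.16 ± 0.08, with an unadjusted 95% interval of -0.35 to 0.04 and an adjusted p of 0.331 in edgeR. The means were 24.6 ± 0.53 and 22.1 ± 1.23 CPM (SD, n = 3), and the counting error of a single library reached 2.6% at 1480 counts.

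Gpihbp1 (chromosome 15, 75596630 to 75598213), the endothelial carrier, had 87.5, 115.9 and 83.9 CPM in WT 1 to 3 and 59.8, 60.7 and 78.7 CPM in KO 1 to 3. WT 2 was the highest library, and the gap between the groups was the small one between WT 3 and KO 3. The means were 95.8 ± 17.5 and 66.4 ± 10.7 CPM (SD, n = 3), with a log2 fold change of -0.53 ± 0.16 and an unadjusted 95% interval of -0.90 to -0.15. The adjusted p was 0.172 in edgeR and 0.0452 in DESeq2.

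Endothelial markers had lower summed levels in the same libraries. The summed level of 12 of 12 measured markers was 307.9 to 391.4 CPM in the WT libraries and 261.4 to 281.8 CPM in the KO libraries, with 10 of 12 fold changes below 0, and 0 of 12 passed edgeR's test. DESeq2, which called Gpihbp1 lower, also called 5 of the 12 lower (Cdh5, Kdr, Tie1, Cldn5 and Robo4), against 4.27% of all genes. Cldn5, a tight junction protein, had the most negative fold change of the 12. Its level was 44.8 ± 7.89 CPM in the WT and 22.4 ± 5.05 CPM in the KO libraries. Esam (0.33 ± 0.16) and Tek (0.15 ± 0.13) had log2 fold changes above 0. The log2 ratio of Gpihbp1 to the mean of the 12 markers was 2.07, 2.16 and 1.80 in WT 1 to 3. In KO 1 to 3 that ratio was 1.66, 1.84 and 2.12. These ranges overlapped, and the difference of -0.14 had a two-sided exact permutation p of 0.6 (0.8 adjusted over 7 ratios), where 3 libraries against 3 cannot give less than 0.1. Without KO 1 the difference was -0.028, and without KO 3 it was -0.26. The part of vessel content in the Gpihbp1 values was not tested beyond this ratio.

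Angptl4 (chromosome 17, 33774900 to 33781575), the fasting-induced inhibitor of the enzyme, had the most negative fold change of the 8 with all 6 libraries, though not without WT 2 or KO 2, where Lpl had it, or without KO 3, where Gpihbp1 had it. The level was 832.2, 1123 and 829.1 CPM in WT 1 to 3 and 716.4, 531.5 and 511.7 CPM in KO 1 to 3. WT 2 was again the highest library, and KO 1 was the library labelled KO nearest to the WT group. The means were 928.1 ± 168.7 and 586.6 ± 112.9 CPM (SD, n = 3), a log2 fold change of -0.66 ± 0.19 with an unadjusted 95% interval of -1.10 to -0.23. The adjusted p was 0.164 in edgeR, 0.0137 in DESeq2 and 0.0450 in edgeR without KO 1, where the fold change was -0.83 and 3.49% of all genes were called lower.

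Angptl2 (chromosome 2, 33215951 to 33247725), a related secreted protein made by stromal cells and adipocytes and known for its role in inflammation of fat, differed from Angptl4 in showing no separation. It had 96.4, 84.4 and 117.1 CPM in WT 1 to 3 and 125.3, 81.2 and 105.0 CPM in KO 1 to 3. The groups overlapped, and KO 1 was the highest library while KO 2 was the lowest. The log2 fold change was 0.06 ± 0.18, with an unadjusted 95% interval of -0.36 to 0.48 and an adjusted p of 0.871 in edgeR, so differences within that interval in either direction cannot be told from 0. Its sign changed without KO 1 (-0.094) and without WT 2 (-0.038). Ralgps1, which overlaps it on the opposite strand, had 441 to 504 counts per library against 5655 to 8431 for Angptl2, and no source used here says whether the counting used strand.

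The receptors differed from each other. Vldlr (chromosome 19, 27216480 to 27254231), which binds triglyceride-rich lipoproteins beside the enzyme, had 110.5, 117.8 and 107.8 CPM in WT 1 to 3 and 97.5, 77.2 and 85.9 CPM in KO 1 to 3. KO 1 was the library labelled KO nearest to the WT group, as for Angptl4. The means were 112.0 ± 5.17 and 86.9 ± 10.2 CPM (SD, n = 3), a log2 fold change of -0.37 ± 0.11 with an unadjusted 95% interval of -0.62 to -0.12. The adjusted p was 0.169 in edgeR, 0.0439 in DESeq2, and 0.0454 in edgeR without KO 1, where the fold change was -0.46.

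Lrp1 (chromosome 10, 127538157 to 127621148), a large endocytic receptor that also clears the enzyme and remnants, had 761.1, 702.8 and 870.0 CPM in WT 1 to 3 and 806.5, 617.0 and 757.3 CPM in KO 1 to 3. The groups overlapped, with the lowest library KO 2 and the highest WT 3. The log2 fold change was -0.10 ± 0.15, with an unadjusted 95% interval of -0.44 to 0.25 and an adjusted p of 0.739 in edgeR. It was -0.18 without KO 1, and it reached 0.015 with scaling by library size alone and 0.0058 without KO 2. GENCODE M21 lists Gm16217 antisense to it, a gene not analysed here. Stromal progenitors and macrophages also make LRP1. The summed level of 10 progenitor and fibroblast markers was 2671 to 2886 CPM in the WT and 2838 to 4411 CPM in the KO libraries. Dcn alone gave 1365 to 1604 CPM of it in the WT and 1690 to 2877 CPM in the KO libraries. The mean log2 CPM of these 10 markers was 7.195 to 7.324 in the WT libraries and 7.16, 7.67 and 7.623 in KO 1 to 3. The summed level of 12 macrophage markers was 1377 to 1696 CPM in the WT and 1386 to 2085 CPM in the KO libraries. Lyz2 alone gave 678.4 to 997.5 CPM of it in the WT and 671.1 to 1074 CPM in the KO libraries. All 12 macrophage fold changes were above 0, against 9287 of 17820 over all tested genes. The mean log2 CPM of these 12 markers was 5.646 to 5.706 in the WT libraries and 5.749, 6.211 and 6.262 in KO 1 to 3. The log2 ratio of Lrp1 to the progenitor and fibroblast markers was 2.33 ± 0.21 in the WT and 2.01 ± 0.45 in the KO libraries (SD, n = 3; two-sided exact permutation p 0.4, 0.8 adjusted over 7 ratios). The difference of -0.32 was -0.56 without KO 1, -0.11 without KO 2 and -0.20 without WT 3. DESeq2 called 3 of the 10 progenitor and fibroblast markers and 3 of the 12 macrophage markers higher, and edgeR none. Of all genes, DESeq2 called 2.89% higher. The part of these cells in the Lrp1 values was not tested.

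Cd36 (chromosome 5, 17781690 to 17888959), which takes up the fatty acids that the enzyme releases and is made by adipocytes, endothelium and macrophages, had 4452, 5828 and 4584 CPM in WT 1 to 3 and 3999, 4177 and 3860 CPM in KO 1 to 3. The KO libraries were close together, and WT 2 stood above all others. The means were 4955 ± 759 and 4012 ± 159 CPM (SD, n = 3), a log2 fold change of -0.30 ± 0.16 with an unadjusted 95% interval of -0.67 to 0.06 and an adjusted p of 0.322 in edgeR. Without WT 2 the log2 fold change was -0.17. In the authors' TPM the groups overlapped, with KO 2 at 2831 and WT 1 at 2773.

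**Figure D2:**
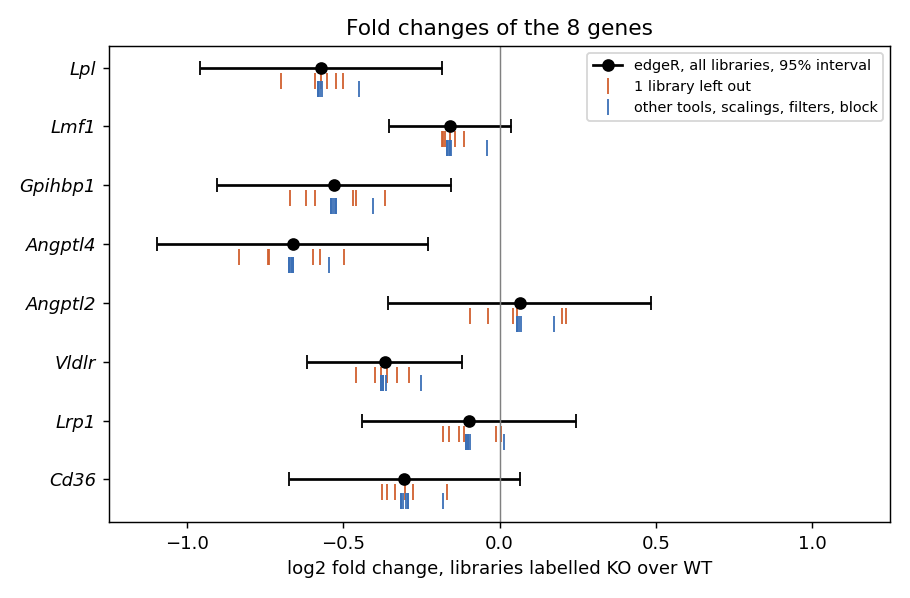
Log2 fold change (horizontal axis) of each gene between the libraries labelled KO and WT, as edgeR's estimate with its unadjusted 95% interval (black), without each library in turn (orange ticks) and under the other tools, scalings, filters and the replicate block (blue ticks). The estimates of Lpl, Lmf1, Gpihbp1, Angptl4, Vldlr and Cd36 stay below 0 in all of these, while those of Angptl2 and Lrp1 lie on both sides of 0.

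Balance within the system was described by ratios to Lpl within each library, which no scaling affects. The log2 ratio of Gpihbp1 to Lpl was -7.10 ± 0.27 in the WT and -7.05 ± 0.35 in the KO libraries (SD, n = 3), and that of Angptl4 to Lpl -3.83 ± 0.26 and -3.91 ± 0.41. Neither ratio separated the groups (two-sided exact permutation p 0.8 for each, where the smallest possible is 0.1). With 3 libraries a group this test cannot reach 0.05. It therefore cannot decide whether the inhibitor or the carrier differed relative to the enzyme. The difference in the Angptl4 ratio, -0.08, was -0.31 without KO 1. The log2 ratio of Vldlr to Lpl differed by 0.21 (exact permutation p 0.5) and that of Cd36 to Lpl by 0.29 (exact permutation p 0.2), with overlap in both. The Vldlr difference was 0.048 without KO 1 and 0.405 without KO 2. KO 1, which had the lowest Lpl, had the highest Angptl4, Vldlr and Cd36 to Lpl ratios of the 6 libraries.

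The level of Lpl was also set against 9 adipocyte markers. The log2 ratio of Lpl to their mean was 2.62, 2.74 and 2.78 in WT 1 to 3 and 1.80, 2.65 and 2.3 in KO 1 to 3. KO 2 lay within the WT range, so the groups overlapped, and the difference of -0.46 had a two-sided exact permutation p of 0.2 (0.7 adjusted over 7 ratios). Without KO 1 the difference was -0.24. The summed level of the 9 markers was 30210 to 34800 CPM in the WT and 33260 to 38750 CPM in the KO libraries. Cfd, which encodes adipsin, gave 4612 to 11370 CPM of it in the WT and 13300 to 18440 CPM in the KO libraries. It had the highest fold change of the 9 (1.02 ± 0.32) and was called higher by DESeq2. Of the 9 fold changes, 7 were below 0, and 0 of 9 passed edgeR's threshold. The mean log2 CPM of the markers, used in the ratio, was 11.02, 10.93 and 10.93 in WT 1 to 3. In KO 1 to 3 that mean was 11.14, 10.67 and 10.7.

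**Figure D3:**
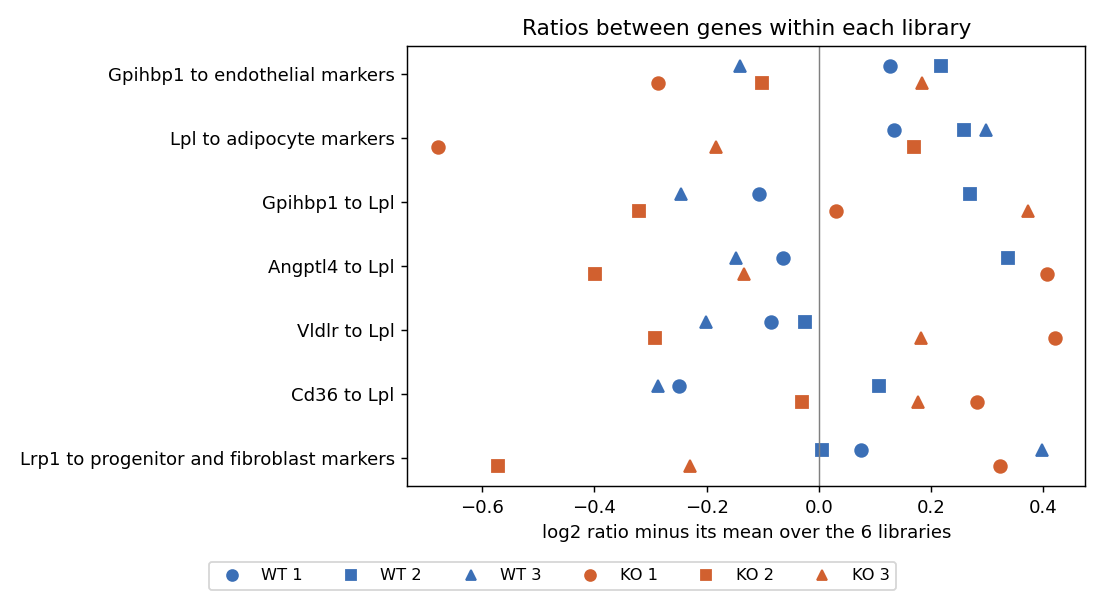
Log2 ratios between genes within each library, shown as the difference from the mean of the 6 libraries (horizontal axis), for the libraries labelled WT (blue) and KO (orange), with symbols for library numbers. Both colours overlap in every one of the 7 ratios, and KO 1 has the lowest ratio of Lpl to adipocyte markers.

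Other genes of the pathway were grouped by role, and 0 of their 63 tested members passed edgeR's test over all genes. DESeq2 called 5 of the 63 lower (Hspg2, Sorl1, Lrp6, Fabp5 and Cav1) and 3 higher (Lsr, Lrp2 and Pparg). Of all genes it called 4.27% lower and 2.89% higher. Over all tested genes, 8533 of 17820 fold changes in edgeR were below 0. Among 7 tested cofactors and further secreted inhibitors of the enzyme the median log2 fold change was 0.36, with 4 above 0. Apoe, a ligand of lipoprotein receptors, had 5226, 3746 and 5067 CPM in WT 1 to 3 and 6213, 5486 and 6353 CPM in KO 1 to 3, without overlap between the labels (log2 fold change 0.36 ± 0.18). Apoc1, an inhibitor of lipoprotein uptake, stood at 0.56 ± 0.28, with KO 3 alone at 179.7 CPM and the other libraries between 77.6 and 93.8 CPM. Apoc4, a minor apolipoprotein, overlapped between labels (-1.08 ± 0.54). Apoc2, the obligate cofactor of the enzyme, is made chiefly by liver and was at 0.47 and 0.76 CPM on average in the WT and KO libraries. The higher KO mean came from KO 3 (1.57 CPM), with KO 1 at 0.43 and KO 2 at 0.29 CPM. Apoc2 was singled out after its values were seen. Apoa5 did not pass the filter on low counts.

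Genes for folding, sorting, cleavage and heparan sulfate carriers of the enzyme had a median log2 fold change of -0.18 over 14 tested, with 10 below 0. Hspg2, which encodes the heparan sulfate proteoglycan perlecan of basement membranes, had 626.4, 1091 and 834.1 CPM in WT 1 to 3 and 535.4, 258.3 and 257.6 CPM in KO 1 to 3 (-1.28 ± 0.34). KO 1 lay between KO 2 and KO 3 and the WT libraries. Sorl1, a sorting receptor that routes the enzyme to lysosomes, stood at 29.2 ± 3.62 and 19.8 ± 1.37 CPM (-0.56 ± 0.11). Sel1l, an adaptor of endoplasmic reticulum quality control needed for export of the enzyme, stood at -0.32 ± 0.11, and Lmf2, the relative of Lmf1, at -0.39 ± 0.13. The adjusted p of these 4 genes ran from 0.123 to 0.202 in edgeR.

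Other lipoprotein receptors lay on both sides of 0, with a median of -0.18 over 12 tested. Lrp6, a WNT coreceptor of the same family, stood at 199.6 ± 14.4 and 136.7 ± 21.3 CPM (-0.55 ± 0.13). In the other direction, Lsr, the lipolysis-stimulated lipoprotein receptor of epithelia, stood at 12.1 ± 3.17 and 22.5 ± 5.0 CPM (0.90 ± 0.23), Lrp2, the epithelial receptor megalin, at 0.67 ± 0.21 and Lrp4 at 0.82 ± 0.27. Mesothelial markers, which include other epithelial genes, had summed levels of 502.3 to 810.9 CPM in the WT and 782.5 to 966.4 CPM in the KO libraries over 8 markers, with 1 of the 8 called higher by DESeq2 and none by edgeR, and their part in the Lsr and Lrp2 values was not tested. None of these receptor genes passed edgeR's test, with adjusted p of 0.145 to 0.192 for the 4 named.

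Genes of fatty acid uptake beside CD36 had a median log2 fold change of -0.21 over 16 tested, with 13 below 0. Fabp5, a fatty acid carrier of macrophages, endothelium and adipocytes, had 107.7, 188.9 and 151.6 CPM in WT 1 to 3 and 86.8, 97.8 and 88.4 CPM in KO 1 to 3 (-0.72 ± 0.19). Cav1 (-0.39 ± 0.15) and Cavin2 (-0.42 ± 0.16), which build the caveolae in which CD36 resides, did not overlap between labels. Meox2, a transcription factor of endothelial fatty acid transport, stood at -0.56 ± 0.19. The adjusted p of these 4 genes ran from 0.155 to 0.218 in edgeR.

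Transcription factors known to act on Lpl, Angptl4 or Cd36 had a median of 0.11 over 11 tested. Pparg had 181.0, 155.1 and 176.1 CPM in WT 1 to 3 and 221.5, 258.1 and 301.5 CPM in KO 1 to 3 (0.61 ± 0.14, adjusted p 0.136 in edgeR and 0.00286 in DESeq2). Its values were thus higher in every library labelled KO, the opposite side from Lpl, Angptl4, Vldlr and Cd36. The relation of Pparg to these genes was not tested. Ppard stood at -0.28 ± 0.12, Rxra at -0.24 ± 0.19 and Nr3c1, the glucocorticoid receptor, at 0.20 ± 0.14.

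Relatives of the enzyme other than Pla1a were scarce, and 3 of 8 passed the filter on low counts. Lipg, the endothelial lipase, had 33, 37 and 32 counts in WT 1 to 3 and 22, 10 and 24 counts in KO 1 to 3 (-1.02 ± 0.39, adjusted p 0.221 in edgeR). Lipc, the hepatic lipase, had 0 to 17 counts per library, and Pla1a, a phospholipase of the same family, stood at 58.7 ± 8.45 and 70.1 ± 13.6 CPM.

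**Figure D4:**
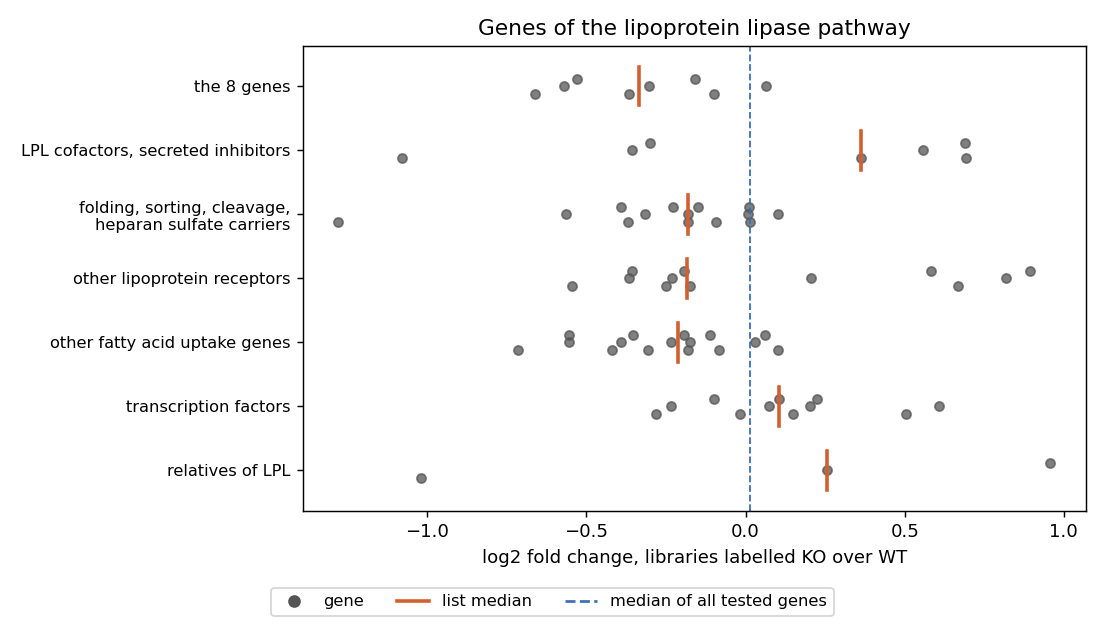
Log2 fold change (horizontal axis) of each tested gene in the 8-gene group and in 6 lists of pathway genes, with the median of each list (orange) and of all tested genes (dashed blue). The 8 genes have a median of -0.34, and lipoprotein receptors and LPL cofactors extend to both sides of 0.

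Genes whose values followed those of the 8 most closely were found by the root mean square difference of centred log2 CPM over the 6 libraries, among 12814 candidates. For Lpl they were Il21r (0.066) and Zpbp (0.081), against an SD of 0.34 for Lpl itself. For Gpihbp1 they were Lrp3, a member of the LDL receptor family (0.047), and Ppp1r16b (0.050). For Angptl4 they were the histone genes H2ac19 (0.057) and H2ac18 (0.061), near-identical copies whose counts are uncertain. For Vldlr they were Ppip5k1 (0.025) and Cox4i1 (0.036), and for Cd36 Nedd8 (0.020) and Itfg1 (0.035). For Angptl2 they were Unc5b (0.068) and Tmem268 (0.074), for Lrp1 Lyst (0.048) and Cep170b (0.051), and for Lmf1 Clcn7 (0.019) and Casc3 (0.023). With 6 libraries and this many candidates, close matches are descriptions of these libraries. Among the 8 genes themselves the closest pair was Angptl2 and Lrp1 (0.116), and the farthest was Angptl4 and Angptl2 (0.465).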

How the data were processed

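RNA of 6 libraries was extracted with Trizol and sequenced from a stranded mRNA kit, per the labels' protocols. Per the submitters' processing notes the build was mm10 and the tools were StringTie 2.1.3b, HISAT2 2.1.0, Bowtie2 2.3.4.1, FastQC 0.11.7 and bcl2fastq 2.20.0; the treatment of strand and of multiply matching reads is not stated in them. The authors deposited, per the file headers, read counts (whole numbers, not normalized), FPKM (not used for results) and TPM, used to compare levels between genes.

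Counts entered every test. The filter was filterByExpr (at least 10 counts, and 15 in total). Counts were scaled by TMM and fitted on the label with edgeR 4.0.16 (R 4.3.3; robust glmQLFit, glmQLFTest, two-sided), with Benjamini-Hochberg adjustment over 17820 genes at 0.05. SE is the fold change over the root of F. Log2 CPM used a prior count of 2. Ratios were tested by exact permutation. Alternatives were DESeq2 1.42.0, limma 3.58.1 (voom), RLE and library-size scaling, no filter, a stricter filter (1 CPM in 3 libraries), a replicate block and leaving out each library. The fits were tested on simulated data with larger planted differences than those of the 8 genes, so calls at the size seen here were not tested. No pair of libraries agreed within sampling noise. Members, lists and alternatives were chosen with earlier results of these data known; non-overlap under other scalings was added after the data were seen. The text names all 8 genes, up to 4 genes per list with the smallest p and the 2 nearest patterns per gene (mean of at least 1 CPM); Apoc2 and the marker genes were named beside this rule. A gene that the rule names is not reported here. The 8 genes had at least 1480 counts per library, and counting error covers reads, not molecules.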

Additional observations from a re-analysis of the deposited data

How the results depend on the processing

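Lpl, Lmf1, Gpihbp1, Angptl4, Vldlr and Cd36 kept a negative log2 fold change in all 13 alternatives. Lrp1 reached 0.015 with scaling by library size alone, and leaving out 1 library gave -0.18 to 0.0058 for Lrp1 and -0.094 to 0.21 for Angptl2. The number of the 8 genes past the threshold, 0 in the fit reported, was 4 with DESeq2 and 0 to 2 with 1 library left out, the 2 being Angptl4 and Vldlr without KO 1. Over all genes the count was 3, against 1152 with DESeq2, 5 with limma voom, 1 with the replicate block and 1 to 1016 with 1 library left out. Of these, 1016 came without KO 1, 5 came with WT 1 left out, and 1 when WT 2, WT 3 or KO 3 was left out. The number of the 8 genes lower without overlap, 6, was 3 with library size alone, a scaling that moved the median of all genes to 0.13. With 1 library left out, the log2 ratio of Gpihbp1 to Lpl differed by -0.12 (without KO 3) to 0.23 (without KO 2) and that of Angptl4 to Lpl by -0.31 (without KO 1) to 0.095 (without KO 2). The other 5 ratios kept their sign, at -0.26 to -0.028 for Gpihbp1 to endothelial markers, -0.66 to -0.24 for Lpl to adipocyte markers, 0.048 to 0.405 for Vldlr to Lpl, 0.21 to 0.41 for Cd36 to Lpl and -0.56 to -0.11 for Lrp1 to progenitor and fibroblast markers. The cause of these shifts was not tested. The correlations of the deviations of same-numbered libraries from the group means were -0.17, -0.02 and 0.05 across genes. Those of differently numbered libraries ran from -0.189 to 0.185. Deviations from a group mean sum to 0 within the group, so these correlations cannot decide whether numbers share animals or handling. With the replicate block 0 of the 8 genes passed. Intervals and p-values rest on 3 libraries a group.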
